A study of Sus scrofa with 8 samples.

Results

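Backfat of 2 pig breeds, KNP and YS, was profiled on the Affymetrix GeneChip Porcine Genome Array, and the genes described here encode proteasome subunits and ubiquitin-conjugating enzymes. The KNP pigs were 7 months old and the YS pigs 6 months old, with 4 arrays per breed, untreated as far as the labels say and raised under the same conditions. KNP is not spelled out in the labels, and YS is given as Yorkshire for 1 sample. Age is tied to breed, and sex and the animal behind each sample are not stated, so p-values measure the spread between these 4 and 4 samples, which may be technical. Members were chosen by symbol: every gene with a probe set annotated to 1 symbol that starts with PSMA, PSMB, PSMC, PSMD, PSME or UBE2, without PSMB8 and PSMB9. The rule gave 60 genes of 6765 with such a probe set, 36 for the proteasome and 24 for ubiquitin-conjugating enzymes, measured by 81 probe sets. Where a gene had several, the probe set of highest mean stands for it. All 60 passed the filter on dim probe sets.

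Ubiquitin is a small protein that marks other proteins for destruction. An activating enzyme (E1) charges it, a conjugating enzyme (E2) carries it, and a ligase (E3) passes it to the target. The 26S proteasome then degrades the target: a cap called the 19S particle binds and unfolds the protein with a ring of ATPases, and a barrel called the 20S core cuts it up. In fat cells this system turns over, among others, the lipid droplet coat protein perilipin 2 when it is not bound to a droplet. Related E2s carry ubiquitin-like proteins instead, such as NEDD8.

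Of 8 adipocyte markers, the defining genes of the labelled tissue, 6 were measured, and these 6 lay above the background level on all 8 arrays. Background was set on each array from 23 controls that match nothing in pig RNA, as their 95th percentile, and it ranged from 40.6 to 161 in signal. Skeletal muscle markers stood apart on KNP replicate 2, where the summed signal of 13 measured genes was 76464, against 280 to 900.1 on the other KNP arrays and 382 to 939 on the YS arrays. The log2 difference between 3' and 5' probe sets of housekeeping genes, a sign of RNA quality, was largest on KNP replicate 1 (8.54), KNP replicate 2 (5.88) and YS replicate 4 (4.40), and 2.12 to 3.17 on the other 5 arrays.

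No member was separated between the breeds by the test. In limma, fitted over 17999 probe sets with Benjamini-Hochberg adjustment, 0 of 60 members passed an adjusted p of 0.05, as did 0% of all probe sets, and every member had an adjusted p of 0.9998 or more. At an unadjusted p under 0.05 there was 1 member, UBE2QL1, or 1.67% of the 60, against 2.84% of all probe sets tested. It was higher in KNP, as were 1.49% of all, and 0 members were past that p and lower in KNP, against 1.35% of all. By sign alone 37 of 60 members were higher in KNP, against 49.9% of all. Values are log2(signal + 16), and differences are KNP minus YS on that scale. The difference was under 0.25 either way for 49 of 60 members (81.7%), against 52% of all probe sets. It was so for 32 of 36 proteasome genes (88.9%) and 17 of 24 E2 genes (70.8%), and the difference between these shares was not tested. Signal differed too, with a median mean of 11.17 for proteasome genes and 9.47 for E2 genes. Of 1892 probe sets in the interquartile range of the proteasome genes' means 69.03% had a difference under 0.25, and of 6080 in that of the E2 genes 65.99%. The median SD over 8 arrays was 0.35 for proteasome genes, 0.36 for those probe sets of like signal and 0.53 for all tested.

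**Figure D1:**
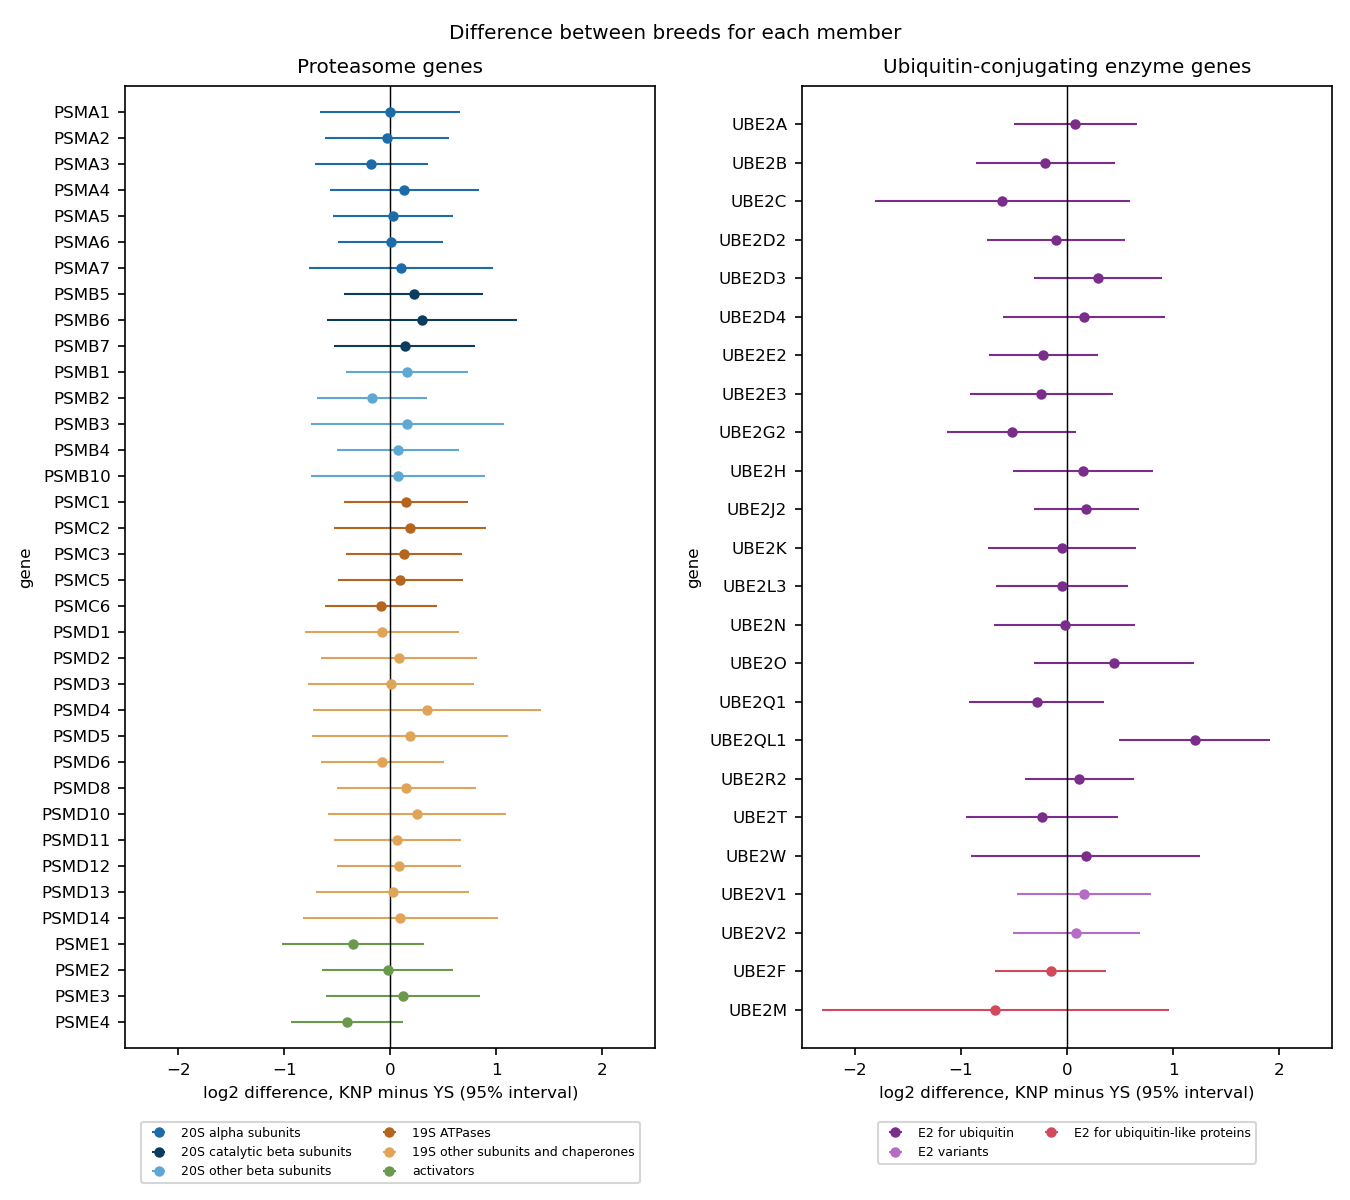
Log2 difference between KNP and YS (x axis, with its 95% interval from limma) for each of 36 proteasome genes (left) and 24 ubiquitin-conjugating enzyme genes (right), coloured by class. UBE2QL1, at 1.21, is the 1 member whose interval does not reach 0, and UBE2M has the widest interval.

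Flat differences do not show equal expression, and the intervals give what the 8 arrays allow. The 95% interval lay within 1 log2 unit either way, a 2-fold change, for 47 of 60 members, against 41.1% of all probe sets tested. The members were also brighter, with a median mean of 10.74 against 8.27, and intervals were not compared at like signal. The interval was within that range for 7 of 7 alpha subunits, 5 of 5 ATPases, 8 of 12 PSMD genes and 18 of 24 E2 genes. The alpha subunit PSMA6 had the narrowest range across arrays among the proteasome genes. It read 12.55, 12.58, 12.56 and 12.27 on KNP replicates 1 to 4 and 12.62, 12.46, 12.54 and 12.32 on YS replicates 1 to 4. Its difference was 0.0039 with an interval from -0.49 to 0.50.

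UBE2QL1, an E2 of the UBE2Q-like type that is known to mark damaged lysosomes for removal, was the member with the largest difference. Its values were 9.36, 8.32, 9.44 and 9.23 on the KNP arrays and 8.30, 7.82, 7.69 and 7.72 on the YS arrays. Every KNP array lay above every YS array, though KNP replicate 2 and YS replicate 1 were 8.32 and 8.30 and nearly touched. KNP averaged 9.09 ± 0.52 and YS 7.88 ± 0.29 (SD, n = 4). That is 2.31-fold more signal in KNP, or 1.21 ± 0.32 (SE) in log2. Its unadjusted limma p of 0.0039 ranked 38 of 17999, and its adjusted p was 0.9998. It was the 1 member with no overlap between breeds (1.67%), where 1.96% of all probe sets had none (1.1% with KNP above, 0.856% with KNP below), and the 1 member with a difference of at least 1 (1.67%, against 3.67%). Over 20 alternative settings the difference ran from 1.06 to 1.46, with an unadjusted p of 0.0132 or less in all 20 and an adjusted p no lower than 0.418. The range was 1.09 to 1.46 with 1 array left out. Its relative UBE2Q1 averaged 11.60 ± 0.46 on the KNP arrays and 11.89 ± 0.14 on the YS arrays (SD, n = 4).

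Among the other E2s for ubiquitin, UBE2G2 had the smallest p in the opposite direction. It builds ubiquitin chains on proteins expelled from the endoplasmic reticulum. Values were 8.63, 8.80, 8.07 and 8.00 in KNP and 8.90, 9.01, 9.03 and 8.64 in YS. The breeds overlapped, because KNP replicate 2 lay above YS replicate 4, and KNP replicates 3 and 4 were low. The difference was -0.52 ± 0.27 (SE), with a 95% interval from -1.13 to 0.09 and an unadjusted limma p of 0.0844. When KNP replicates 1 and 2 and YS replicate 4, the arrays with most 3' excess, were left out it was -0.94 (limma, unadjusted p = 0.00658, adjusted p = 0.470). The only KNP arrays then kept were replicates 3 and 4, the low ones, so the larger difference depended on which arrays were dropped. Over all 20 settings the difference ran from -0.94 to -0.40. Its unadjusted limma p was under 0.05 in 4 of the 20, and the highest was 0.202. Without KNP replicate 2, the array with muscle signal, it was -0.66 (limma, unadjusted p = 0.0430).

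UBE2E3, an E2 that is carried into the nucleus once charged with ubiquitin, was lower in KNP by all 3 of its probe sets. This gene was singled out after its values were seen. Its brightest probe set, with a name that in the array maker's scheme marks probes matching more than 1 transcript, averaged 11.64 ± 0.49 on the KNP arrays and 11.88 ± 0.23 on the YS arrays (SD, n = 4). The second was at 9.17, 9.52, 8.92 and 9.58 in KNP and 10.08, 10.08, 9.81 and 9.34 in YS, a difference of -0.53 ± 0.28 (SE). The third was at 8.74, 8.37, 8.72 and 8.48 in KNP and 9.31, 9.04, 9.18 and 9.06 in YS. All KNP arrays lay below all YS arrays on the third probe set, as for 0.856% of all probe sets tested. Its difference was -0.57 ± 0.22 (SE), with an unadjusted limma p of 0.0301 and an adjusted p of 0.9998. Of all probe sets tested, 1.35% had an unadjusted limma p under 0.05 and were lower in KNP. The breeds overlapped on the other probe sets of the gene. The differences of the 3 probe sets were thus -0.24, -0.53 and -0.57, and they read the same RNA samples, so they are not separate evidence.

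**Figure D2:**
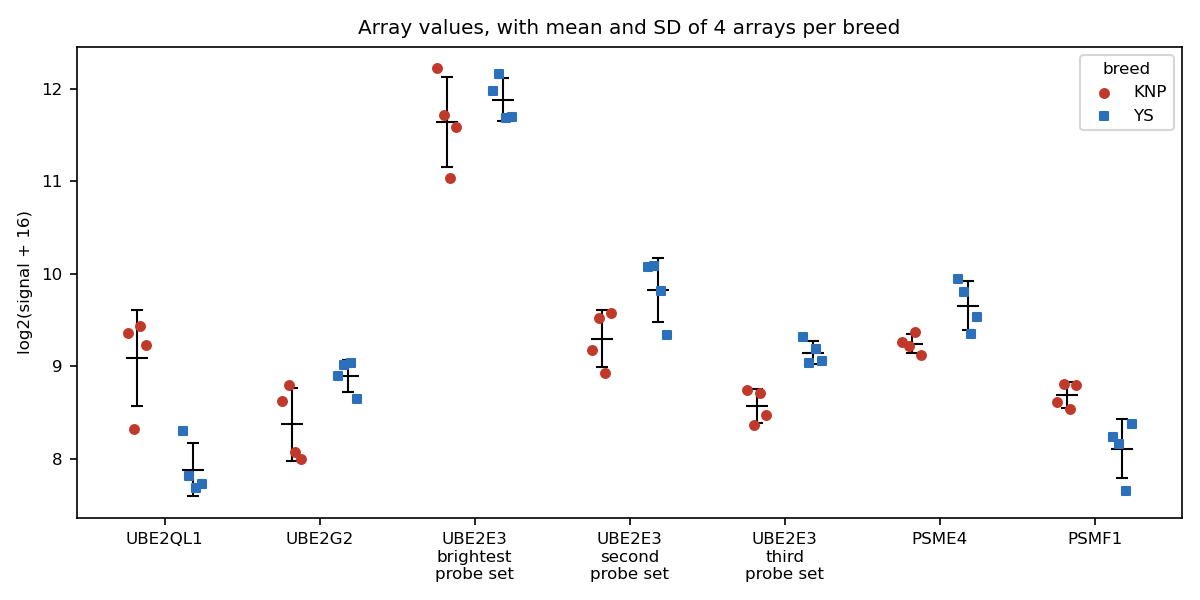
Log2(signal + 16) on each array (KNP circles, YS squares) with the mean and SD of 4 arrays per breed (black) for UBE2QL1, UBE2G2, the 3 UBE2E3 probe sets, the proteasome activator PSME4 and the proteasome inhibitor PSMF1. The breeds do not overlap for UBE2QL1, the last of the UBE2E3 probe sets and PSMF1, and levels of different probe sets are not comparable.

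For the other E2s that serve ubiquitin, the values gave no separation. UBE2D3, of a subfamily that works with many ligases, was at 10.40, 10.84, 10.70 and 10.45 in KNP and 10.52, 10.45, 10.51 and 9.75 in YS. YS replicate 4 stood below the other 7 arrays, and the difference was 0.29 ± 0.27 (SE). The only UBE2D3 probe set has a name of the kind that marks probes matching more than 1 transcript, as for the brightest UBE2E3 probe set. UBE2C, the E2 of the anaphase-promoting complex in dividing cells, was dim, at 7.70, 5.55, 6.03 and 7.40 in KNP and 7.82, 7.28, 7.60 and 6.41 in YS. It lay above the background level on 2 KNP and 3 YS arrays, and its difference of -0.61 had an interval from -1.81 to 0.59. Its other probe set was also lower in KNP, by -0.38. UBE2T, which acts in DNA repair, had a difference of -0.24. In the proliferation marker list 6 of 8 genes were measured, 2 of them above background on all 8 arrays, and their summed signal was 1055 to 1642 in KNP and 1284 to 1850 in YS. The part of dividing cells in the UBE2C values was not tested. UBE2O, which joins E2 and E3 functions in 1 protein, had a difference of 0.44 ± 0.34 (SE), with an interval from -0.31 to 1.20. Of 20 E2 genes for ubiquitin, 9 were higher and 11 lower in KNP.

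UBE2V1 and UBE2V2 lack the active cysteine and pair with UBE2N to build chains that signal rather than degrade. UBE2V1 was at 12.50, 12.07, 11.50 and 11.69 in KNP and 11.91, 11.85, 11.79 and 11.57 in YS, a difference of 0.16 ± 0.28 (SE). Its 3 probe sets disagreed in sign, from -0.21 to 0.16. UBE2V2 differed by 0.09 ± 0.27 (SE), with 11.38 on KNP replicate 1 as its highest value and 10.55 on YS replicate 4 as its lowest. Their partner UBE2N differed by -0.02 ± 0.30 (SE). The NEDD8 enzyme UBE2M had the widest spread of all members. It read 5.11 on KNP replicate 1, below background, then 7.95, 9.01 and 7.80 on the other KNP arrays, and 8.66, 7.86, 8.35 and 7.72 in YS. Its difference of -0.68 turned with that array and was 0.11 without KNP replicate 1. UBE2F, the second NEDD8 enzyme, differed by -0.15 ± 0.23 (SE). The median difference over 24 E2 genes was -0.03, with 11 higher and 13 lower in KNP, beside a median of -0.0010 over all probe sets tested. It turned sign in 4 of 20 settings and ran from -0.15 to 0.08.

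In the 20S core, the outer rings of alpha subunits form the gate and the inner rings of beta subunits hold the cutting sites. The 7 alpha subunits had a median difference of 0.0039, with 4 higher and 3 lower in KNP, and their differences ran from -0.18 for PSMA3 to 0.13 for PSMA4. PSMA3 read 13.09, 12.70, 12.56 and 12.61 in KNP and 13.14, 12.95, 12.82 and 12.76 in YS, with KNP replicate 1 among the high YS values. PSMA4 read 11.73, 11.73, 11.46 and 11.19 in KNP and 12.02, 11.49, 11.33 and 10.75 in YS, so YS held both the highest and the lowest array. PSMA1 had its highest and lowest values both in KNP, 12.35 on replicate 1 and 11.15 on replicate 4.

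The 3 catalytic subunits of the standard core were each slightly higher in KNP, and none was past an unadjusted p of 0.05. PSMB5, the chymotrypsin-like site, was at 10.53, 10.72, 9.88 and 10.07 in KNP and 10.42, 9.79, 10.28 and 9.82 in YS. Its difference was 0.22 ± 0.29 (SE), and the breeds overlapped throughout. PSMB6, the caspase-like site, was at 11.06, 11.19, 10.91 and 10.74 in KNP and 11.14, 10.88, 11.21 and 9.47 in YS. YS replicate 4 was the low array, and the difference was 0.30 ± 0.40 (SE). PSMB7, the trypsin-like site, was at 12.39, 11.91, 11.62 and 11.64 in KNP and 11.92, 11.92, 12.00 and 11.19 in YS, a difference of 0.14 ± 0.29 (SE). Without YS replicate 4 the differences were 0.13 for PSMB5, -0.10 for PSMB6 and -0.05 for PSMB7.

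The remaining beta subunits of the standard core, PSMB1 to PSMB4, have no cutting site. Their differences were 0.16, -0.17, 0.16 and 0.07. PSMB1 was highest on KNP replicate 1 at 12.94, with the other 7 arrays between 12.13 and 12.49. PSMB2 read 11.47, 11.24, 11.18 and 11.16 in KNP and 11.62, 11.45, 11.54 and 11.12 in YS, a difference of -0.17 ± 0.23 (SE).

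In the 19S cap, 14 of 17 genes were higher in KNP, with a median of 0.09, where 49.9% of all probe sets were higher. That count rested on 1 array: without YS replicate 4, 6 of 17 were higher, with a median of -0.07, and 54.84% of all probe sets. The ATPases PSMC1, PSMC2, PSMC3, PSMC5 and PSMC6 form the ring that unfolds the target and feeds it into the core, and 4 of these 5 were higher. PSMC2 was at 11.56, 11.52, 11.84 and 11.81 in KNP and 12.03, 11.68, 11.62 and 10.67 in YS. YS gave both its highest array and its lowest, and the difference was 0.18 ± 0.32 (SE), or -0.09 without YS replicate 4. With all arrays kept, 3 of 3 PSMC2 probe sets, which read the same samples, lay between 0.13 and 0.22. PSMC6 was the ATPase that was lower, at 11.97, 11.43, 11.75 and 12.03 in KNP and 11.84, 11.94, 11.83 and 11.92 in YS, a difference of -0.09 ± 0.23 (SE).

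Of 12 PSMD genes, which encode the scaffold, the ubiquitin receptors, the deubiquitinase and the chaperones of the cap, 10 were higher and 2 lower. Among all probe sets 49.9% were higher. Without YS replicate 4, 4 of 12 PSMD genes were higher, with a median of -0.08, and 54.84% of all probe sets. PSMD4, a receptor for ubiquitin chains, had the largest difference at 0.35 ± 0.48 (SE), or -0.09 without YS replicate 4. Its values were 9.24, 10.32, 10.52 and 10.14 in KNP and 10.27, 10.37, 9.79 and 8.41 in YS, with single low arrays in both breeds. PSMD6 was among the lower ones, at 10.81, 10.35, 11.06 and 10.89 in KNP and 11.04, 10.99, 10.86 and 10.52 in YS. PSMD14, which removes ubiquitin before the target is cut, ranged from 10.48 to 11.96 in KNP and from 10.44 to 11.53 in YS, a spread within breeds that far exceeded its difference of 0.09. PSMD5, a chaperone that helps assemble the cap and then leaves it, was highest on KNP replicate 3 at 12.01, against 10.05 to 10.82 on the other 7 arrays. PSMD11 had a difference of 0.07 by its brightest probe set, while its dimmer ones gave -0.59 and 0.54.

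Single arrays, more than breed, ordered the proteasome genes. On YS replicate 4, 18 of 36 proteasome genes had their lowest value of the 8 arrays and 0 had their highest. By contrast 28.03% of all probe sets tested were highest there and 13.6% lowest. Among the 1892 probe sets of like signal 28.5% were lowest on that array, so part of the shift was shared by bright probe sets. These counts use the brightest probe set of each gene, and probe sets of 1 gene could differ. PSMC2 was lowest on YS replicate 4 by its brightest probe set (10.67) but not by its others (9.60 and 10.75). PSMD1 was lowest there by its dimmer probe set (9.98) but not by its brightest (11.05). The median deviation from the gene means on YS replicate 4 was -0.42 for the 15 core genes and -0.48 for the 17 cap genes, against -0.19 for probe sets in the proteasome genes' signal range. It was -0.22 for the E2 genes, against 0.0086 for probe sets in the E2 genes' signal range, and 0.21 for all probe sets. After quantile normalization, which gives all arrays 1 distribution, 14 of 36 proteasome genes were still lowest on YS replicate 4 and their median deviation there was -0.28. Another 3 were then highest there. The E2 genes stood at -0.29 on that array after quantile normalization, with 9 of 24 lowest and 0 highest. The gap between proteasome and E2 genes on YS replicate 4 thus depended on the scaling.

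Without YS replicate 4 the median difference of the proteasome genes went from 0.08, with 26 of 36 higher in KNP, to -0.07, with 9 of 36 higher. The direction of that median therefore rested on 1 array. The count for the core genes went from 11 of 15 to 2 of 15. It was also below 0 with array weights (-0.07, 11 of 36 higher) and when KNP replicates 1 and 2 and YS replicate 4 were all left out (-0.14, 7 of 36 higher). Without KNP replicate 2 it was 0.05. YS replicate 4 had the highest background level, 161 in signal. It also had the lowest summed adipocyte markers of the 8 arrays, 68652 against 75664 to 96625 in KNP, and the highest summed T and NK cell markers, 2915. By the median deviation of the 6 adipocyte genes from their means, KNP replicates 1 (-0.66) and 2 (-0.44) lay below YS replicate 4 (-0.43). The part of background, RNA quality and cell makeup in the low proteasome values of YS replicate 4 was not tested.

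**Figure D3:**
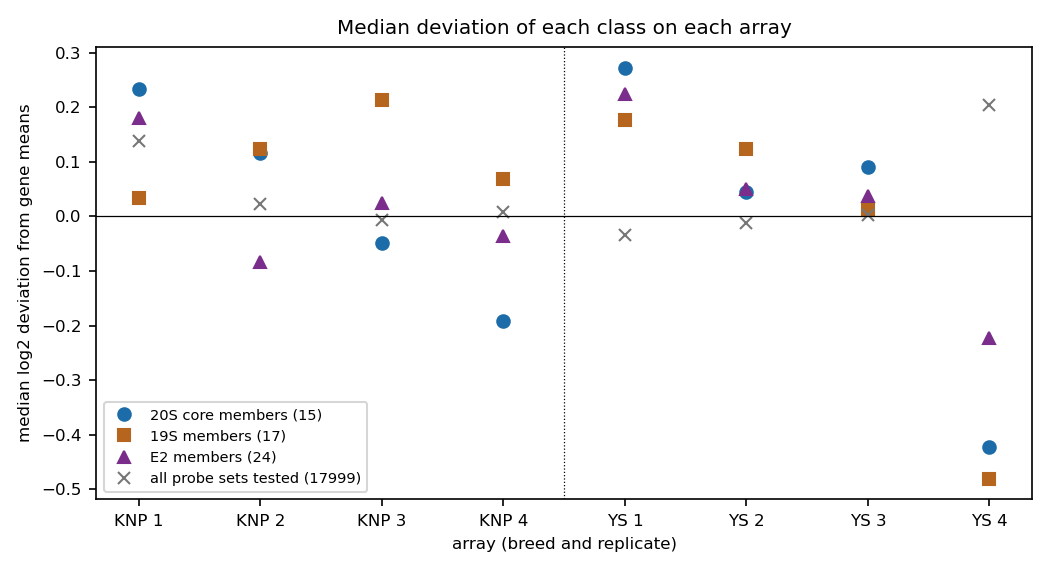
Median log2 deviation from the gene means (y axis) on each array (x axis) for the 15 core genes, 17 cap genes, 24 ubiquitin-conjugating enzyme genes and all 17999 probe sets tested. On YS replicate 4 the core and cap genes sit at -0.42 and -0.48 while all probe sets sit at 0.21.

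Core and cap genes did not follow each other on every array. On YS replicate 1, 8 of 15 core genes had their highest value, 5 of them among the 7 alpha subunits, and the core median was 0.27 against 0.18 for the cap. On KNP replicate 3 the cap stood at 0.21 and the core at -0.05, and on KNP replicate 4 the cap stood at 0.07 and the core at -0.19. KNP replicate 1 had the reverse order, with the core at 0.23 and the cap at 0.03. These are medians on single arrays and carry no test. After quantile normalization 3 of 15 core genes were highest on YS replicate 1, so that pattern depended on the scaling, while on KNP replicate 3 the cap stayed at 0.19 and the core at -0.08.

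**Figure D4:**
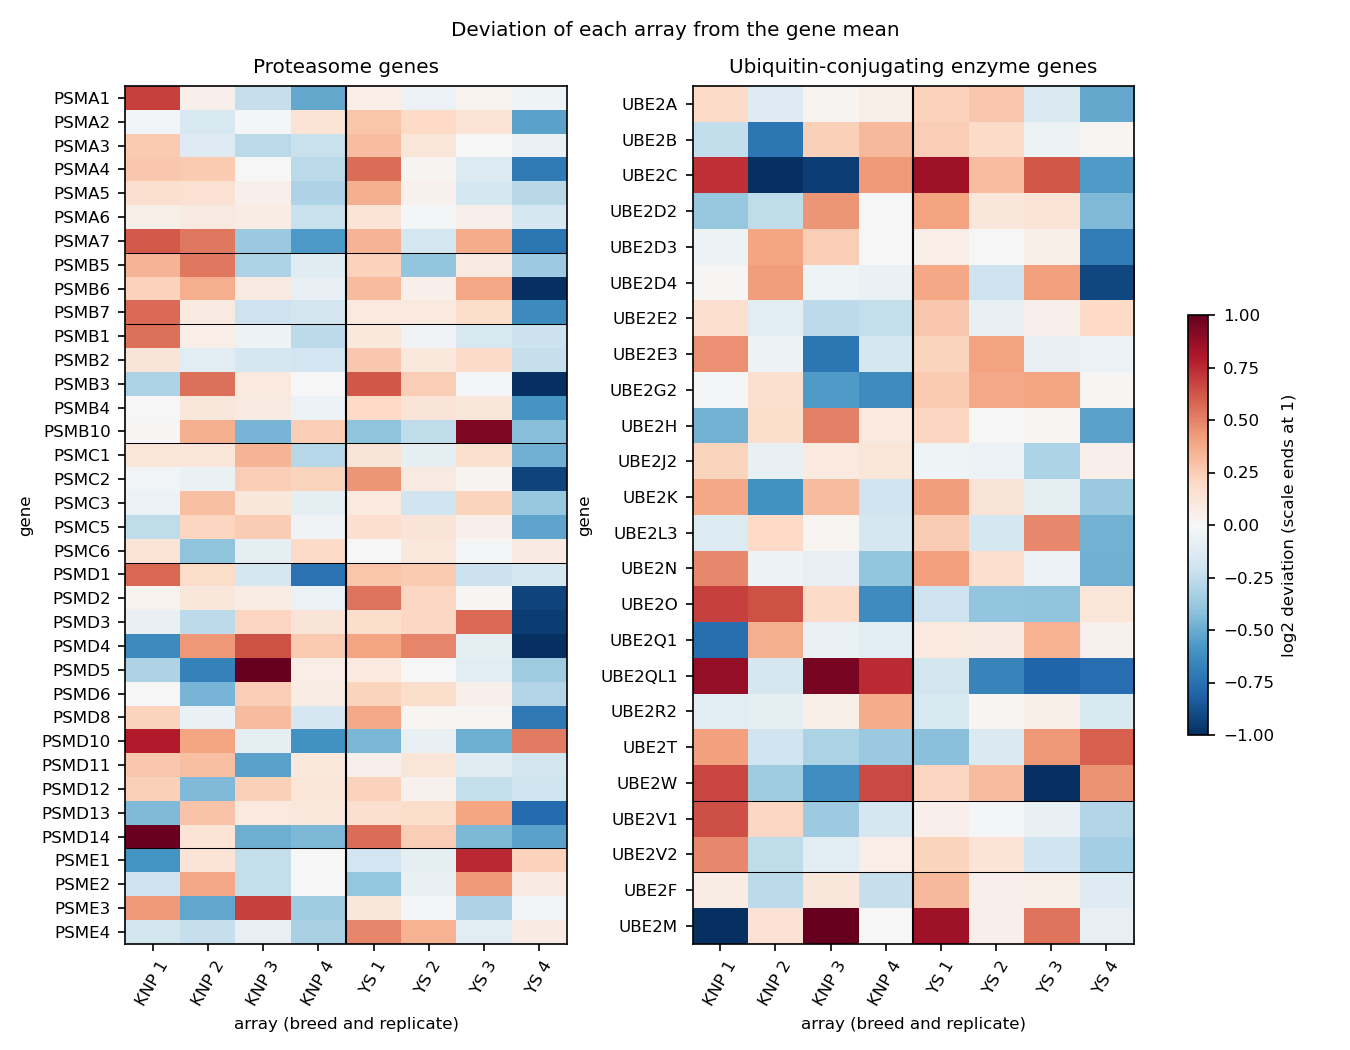
Log2 deviation of each array (columns) from the mean of each gene (rows) for the proteasome genes (left) and ubiquitin-conjugating enzyme genes (right), with lines between classes and between breeds. Blue values gather in the YS replicate 4 column of the proteasome genes, and the UBE2QL1 row is red on KNP replicates 1, 3 and 4 and blue on YS replicates 2, 3 and 4.

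Members that interferon is known to induce were highest on another array, YS replicate 3. PSMB10 replaces PSMB7 in the immunoproteasome, and PSME1 and PSME2 form the 11S ring, an activator that opens the core without the cap. PSMB10 was at 9.47, 9.81, 8.99 and 9.70 in KNP and 9.05, 9.20, 10.39 and 9.03 in YS, so YS replicate 3 stood above all others. PSME1 was at 9.96, 10.70, 10.32 and 10.56 in KNP and 10.37, 10.47, 11.31 and 10.79 in YS. PSME2 was at 10.55, 11.15, 10.52 and 10.75 in KNP and 10.37, 10.69, 11.18 and 10.85 in YS. All 3 were highest on YS replicate 3, where 6.43% of all probe sets tested were highest, and this carries no test. For PSME2 the lead was small, since KNP replicate 2 read 11.15. The immunoproteasome subunit PSMB8, which the rule leaves out, was also highest there at 10.52, as was the interferon-induced modifier ISG15 at 9.83.

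Breed differences were 0.07 ± 0.36 for PSMB10, -0.35 ± 0.30 for PSME1 and -0.03 ± 0.27 for PSME2 (SE), all with intervals that span 0. Without YS replicate 3 they were 0.40, -0.16 and 0.11. The sign for PSMB10 changed in 5 of 20 settings. T and NK cell markers, 8 of 10 measured and 1 above background on all 8 arrays, had a summed signal of 2288 on YS replicate 3. They summed to 680 to 2350 in KNP and 1014 to 2915 in YS, with the highest sum on YS replicate 4. Macrophage and myeloid markers, 4 of 7 measured and 3 above background on all 8 arrays, were highest on YS replicate 3 at 4262, against 1828 to 3686 in KNP and 2259 to 3316 on the other YS arrays. The sums of fibroblast markers (47805) and proliferation markers (1850) were also the highest of the 8 arrays on YS replicate 3. The part of any of these cell types in the values was not tested. In tissue RNA, fewer cells of a type and less RNA per cell cannot be told apart.

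**Figure D5:**
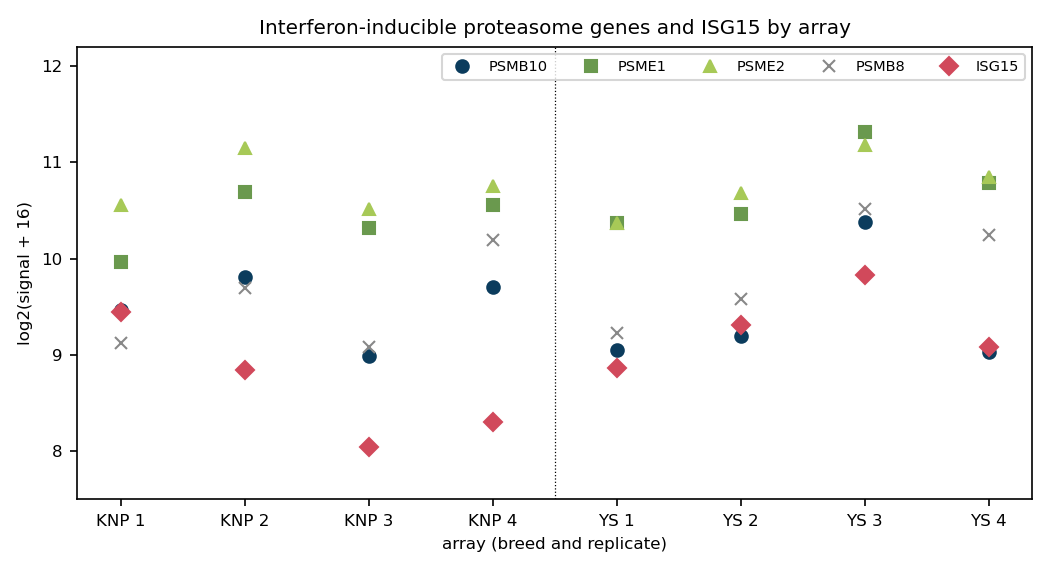
Log2(signal + 16) by array for PSMB10, PSME1, PSME2, PSMB8 and ISG15. Each gene is highest on YS replicate 3, and levels are to be compared across arrays within a gene only.

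The activators outside that group behaved differently. PSME4, a large activator found in the nucleus, had the smallest p of the proteasome genes, at 9.27, 9.22, 9.37 and 9.12 in KNP and 9.94, 9.80, 9.35 and 9.53 in YS. Only YS replicate 3, at 9.35, fell within the KNP values. The difference was -0.41 ± 0.24 (SE) with a 95% interval from -0.94 to 0.12 and an unadjusted limma p of 0.113, and it stayed between -0.51 and -0.32 over 20 settings. PSME3, which forms a nuclear ring of its own, was at 9.02, 8.07, 9.28 and 8.24 in KNP and 8.70, 8.58, 8.29 and 8.57 in YS, a difference of 0.12 ± 0.32 (SE).

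Other genes of the pathway were taken from lists by role. The ubiquitin genes UBB and RPS27A differed by 0.04 ± 0.24 and 0.20 ± 0.26 (SE). Of 5 measured E1 and E1-like genes 3 were higher and 2 lower in KNP, and 0 had an unadjusted p under 0.05. SAE1, a subunit of the SUMO-activating enzyme, differed by 0.38 ± 0.27 (SE), or 0.20 without KNP replicate 2, and ATG7, the E1-like enzyme of autophagy, by -0.07 ± 0.27 (SE). Of 9 ubiquitin-like modifiers 7 were higher and 2 lower, with 0 under 0.05, where 49.9% of all probe sets were higher. FAU, NEDD8, SUMO3, UBL4A, UBL5 and UFM1 had their lowest value on YS replicate 4, and URM1, SUMO2 and ISG15 did not. Their median difference of 0.225 lay between 0.08 and 0.32 with 1 array left out. It was 0.0062 without KNP replicates 1 and 2 and YS replicate 4. URM1, which also serves as a sulfur carrier, differed by 0.53 ± 0.31 (SE), and ISG15 by -0.61 ± 0.37 (SE). URM1 was 0.28 without KNP replicate 2. ISG15 ran from -0.88 without KNP replicate 1 to -0.41 without KNP replicate 3. When KNP replicates 1 and 2 and YS replicate 4 were all left out, URM1 was 0.16 and ISG15 -1.17 (limma, unadjusted p = 0.0162, adjusted p = 0.513). The KNP arrays then kept, replicates 3 and 4, held the lowest ISG15 values, 8.04 and 8.30. The unadjusted limma p of ISG15 was under 0.05 in 4 of 20 settings.

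Among 8 proteasome assembly and regulation genes, 7 were higher in KNP, with a median of 0.27, and 1 had an unadjusted p under 0.05, where 49.9% of all probe sets were higher and 2.84% were under that p. That gene was PSMF1, which encodes the proteasome inhibitor PI31. It was at 8.61, 8.81, 8.54 and 8.80 in KNP and 8.24, 8.16, 7.65 and 8.38 in YS, and the lowest KNP array lay above the highest YS array, as for 1.1% of all probe sets. The difference was 0.58 ± 0.25 (SE), 1.49-fold, with an unadjusted limma p of 0.0434 and an adjusted p of 0.9998. The unadjusted p was under 0.05 in 6 of 20 settings and 0.184 when its probe sets were averaged. Its dimmer probe set differed by 0.67 ± 0.86 (SE). PSMG3, a chaperone for building the core, was between 9.45 and 9.55 in KNP and at 8.98, 8.88, 9.55 and 9.12 in YS, a difference of 0.37 ± 0.24 (SE).

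Shuttles, deubiquitinases and ligases gave no gene past an unadjusted p of 0.05 in limma with all 8 arrays and the settings above. Of 7 shuttle and segregase genes tested 6 were higher in KNP, where 49.9% of all probe sets were. VCP, NSFL1C, DERL1, SQSTM1 and UBXN4 had their lowest value on YS replicate 4, and FAF2 and UFD1 did not. The list median of 0.09 lay between 0.03 and 0.28 with 1 array left out. The autophagy receptor SQSTM1 differed by 0.40 ± 0.30 (SE), or 0.19 without KNP replicate 3. UBXN4, an anchor for the segregase at the endoplasmic reticulum, differed by 0.30 ± 0.26 (SE), or 0.14 without YS replicate 4. Of 18 deubiquitinases 11 were higher and 7 lower. UCHL1, abundant in nerve cells, was at 9.37, 7.78, 9.41 and 8.78 in KNP and 8.72, 8.12, 7.10 and 5.90 in YS, with 7 of 8 arrays above background. Its difference was 1.38 ± 0.62 (SE) with an interval from -0.03 to 2.78, and the YS arrays alone spanned more than that. It was 0.86 without YS replicate 4, and the unadjusted limma p was under 0.05 in 6 of 20 settings, the lowest 0.0164. BAP1, a nuclear deubiquitinase, differed by 0.49 ± 0.34 (SE), or 0.29 without YS replicate 1. Of 24 ligase genes 15 were higher and 9 lower, and RNF40 and ARIH2, the first by p, differed by 0.27 ± 0.25 and -0.36 ± 0.37 (SE), the latter -0.05 without KNP replicate 1. CUL4A, a scaffold of ligase complexes, had no overlap between breeds but a difference of 0.09. No overlap was found for 1 of 24 ligases and for 1.96% of all probe sets, and CUL4A was named after its values were seen.

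Where several probe sets of a member were tested, 9 of 13 genes agreed in sign. PSMC2, UBE2O, UBE2D4 and UBE2H were higher by all of theirs, and PSMD1, UBE2L3, UBE2Q1, UBE2C and UBE2E3 were lower by all. The genes with opposite signs were PSMD11, UBE2A, UBE2D2 and UBE2V1. Background limited few members: 55 of 60 lay above it on all 8 arrays (91.7%), against 60.2% of all probe sets tested. Each member stands by its brightest probe set, which favours a high share, while all probe sets include dimmer ones of the same genes. The members not above background on all 8 arrays were PSMB3, UBE2C, UBE2D4, UBE2M and UBE2W.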

How the data were processed

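The deposited table gave a linear intensity for each of 24123 probe sets on 8 arrays. The authors' intensity values had a mean, trimmed by 2% at each end, of 500.1 on every array, which was read from the values. Which algorithm summarised the probes was not given in the sources used here. Arrays carry no counts, so precision rests on 4 arrays per breed. Values were taken as log2(signal + 16). The 124 control probe sets and the 25% of others with the lowest mean were left out, which left 17999. The test of breed was limma's (version 3.58.1, R 4.3.3, no covariate, two-sided, Benjamini-Hochberg, threshold 0.05), checked on data with known changes. Gene names came from the platform annotation. Of 60 members 59 were matched by Entrez identifier to RefSeq (Sscrofa11.1), with 0 symbols changed, and UBE2D3 was not matched. No sequences or positions are given.

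The members and lists were chosen with earlier results of these data known. Named were members with an unadjusted p under 0.05 or no overlap, the smallest p per class and direction, PSMB5, PSMB6, PSMB7, PSMB10, PSME1, PSME2, UBE2C, UBE2D3, UBE2V1 and UBE2V2, and the first 2 by p of each related list. PSMA1, PSMA6, PSMD5, PSMD14, UBE2F, UBE2N, UBE2O, UBE2Q1 and UBE2T were added after their values were seen. Replicate numbers do not pair the samples: deviations of same-numbered arrays correlated from -0.19 to 0.13. Alternatives were other filters, scalings, pseudocounts and variance models (with statmod 1.5.0), a replicate block, weighted arrays, the 3'/5' value as a covariate, averaged probe sets and arrays left out. Counts by class without YS replicate 4 were added after seeing the data.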

Additional observations from a re-analysis of the deposited data

Results flagged for a closer look

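Of 80 groups of 4 arrays checked with Dixon's ratio, 5 held an array far from the others, and chance gives about 1 in 20. On YS replicate 4, PSMB7 was at 11.19 against 11.92 to 12.00 on the other YS arrays, UBE2D3 at 9.75 against 10.45 to 10.52, and the segregase anchor UBXN4 at 10.87 against 11.48 to 11.53. On YS replicate 3, PSMB10 was at 10.39 against 9.03 to 9.20 on the other YS arrays. On KNP replicate 4, BAP1 was at 9.08 against 9.79 to 9.90 on the other KNP arrays.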

How the results depend on the processing

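The count of 0 members called held in all 20 settings, and that of 0 probe sets called in all 19 where it was run (smallest adjusted p 0.0596, with a variance trend and robust fitting). Members with an unadjusted p under 0.05 numbered 2 rather than 1 when arrays were weighted, when the 3'/5' value was a covariate, and without KNP replicates 1 and 2 and YS replicate 4 together. UBE2G2 joined UBE2QL1 each time. With 1 array left out the number was 1 to 2, UBE2G2 joining without KNP replicate 2 and UBE2O without KNP replicate 4. The proteasome median was -0.14 without those 3 arrays together and between -0.07 and 0.16 with 1 array left out. The E2 median lay between -0.15 and 0.08 with 1 array left out. With the replicate block the medians stayed at 0.08 and -0.03, as they must, since a balanced block leaves each difference unchanged. By p, UBE2QL1 remained the 1 member under 0.05 with the block, so no call changed. Of 23 named members, 8 kept 1 sign in all 20 settings: UBE2QL1, UBE2D3, PSMA3, PSMB2, PSME1, PSME4, UBE2G2 and UBE2C (19 settings gave the last a p). The other filters, the variance trend with robust fitting and the replicate block can change a p but not a difference. Averaging probe sets cannot change the difference of a gene with 1 probe set. A sign kept in those settings was therefore fixed in advance. The causes were not tested. With 4 arrays per breed, differences much under 2-fold were within the intervals of most members.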
